A study of Homo sapiens with 12 samples.

Results

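The genes of the integrin and laminin chains were followed across RNA-seq libraries of 12Z, an epithelial line that was established from endometriotic tissue and immortalized. Members were protein-coding genes whose symbols name an integrin alpha chain (ITGA), an integrin beta chain (ITGB) or a laminin alpha, beta or gamma chain (LAMA, LAMB, LAMC). Of 60617 gene identifiers, 37 that met this description are reported, namely 18 integrin alpha, 8 integrin beta and 11 laminin genes. In total, 33 of them averaged at least 1 count per library and were tested among 22756 genes. ITGA9 and ITGB6 were just inside this limit with a mean of 1.58 counts each, and LAMC3 was just outside it with 0.583 counts. ITGA8, ITGAD and LAMB4 were also outside it.

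All cells carried non-targeting siRNA and received, transiently, a pBabe plasmid. H1047R cells received the plasmid with PIK3CA H1047R and control cells the empty one. The product of PIK3CA is p110α, which carries the kinase activity of PI3K, and the H1047R substitution makes it more active. After 4 h without serum, cells were given 100 nM insulin or vehicle in serum-free medium for 24 h. This gave 4 groups of 3 libraries, called H1047R insulin, H1047R vehicle, control insulin and control vehicle. The study describes the replicates as independent experiments with 1 cell line, so the spread between libraries is that of this line. Transfection was transient, and expression of the plasmid in single cells was not measured here.

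Integrins are receptors made of 1 alpha and 1 beta chain that span the plasma membrane and tie the extracellular matrix to the actin or keratin cytoskeleton. The alpha chain largely sets the ligand, and ITGB1 is the partner of most alpha chains. Laminins are trimers of 1 alpha, 1 beta and 1 gamma chain that build the basement membrane under epithelia, including the endometrial epithelium. LAMA3 and LAMB3 are chains of the laminin that anchors epithelial cells through the ITGA6 and ITGB4 receptor of hemidesmosomes.

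Promoter windows from RefSeq (GRCh38.p14), which run from 250 bases before to 50 bases after an annotated start, were matched to 26 of the 37 genes. The 6 windows printed here belong to the chains on which the results turn, that is, to 5 genes that were higher and 1 that was lower in H1047R insulin. They are ITGA2 (chr5:52989102-52989401, plus strand), ITGA1 (chr5:52787666-52787965, plus), ITGA5 (chr12:54419217-54419516, minus), ITGA6 (chr2:172427086-172427385, plus), LAMB3 (chr1:209652376-209652675, minus) and LAMA3 (chr18:23872770-23873069, plus). Of LAMB3 and ITGA6, which have several windows, the first listed is given. The LAMA3 window is at an internal start, 183567 bases downstream of the gene's first base, while the other 5 starts lie within 18 bases of the gene's first base. Each is written 5′ to 3′ on the gene's strand, and capitals mark matches to the 7 motifs given after them.
ITGA2: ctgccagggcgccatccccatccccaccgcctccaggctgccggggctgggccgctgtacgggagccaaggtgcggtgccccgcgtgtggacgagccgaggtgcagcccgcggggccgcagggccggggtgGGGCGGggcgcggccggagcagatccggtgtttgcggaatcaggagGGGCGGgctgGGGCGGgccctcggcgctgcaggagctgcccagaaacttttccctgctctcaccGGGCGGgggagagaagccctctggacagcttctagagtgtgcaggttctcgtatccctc
ITGA1: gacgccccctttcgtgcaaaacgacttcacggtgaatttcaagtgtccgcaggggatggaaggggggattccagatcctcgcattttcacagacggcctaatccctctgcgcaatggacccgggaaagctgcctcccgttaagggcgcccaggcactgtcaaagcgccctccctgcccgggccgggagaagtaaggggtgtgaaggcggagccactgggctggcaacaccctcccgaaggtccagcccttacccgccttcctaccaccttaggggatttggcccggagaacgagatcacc
ITGA5: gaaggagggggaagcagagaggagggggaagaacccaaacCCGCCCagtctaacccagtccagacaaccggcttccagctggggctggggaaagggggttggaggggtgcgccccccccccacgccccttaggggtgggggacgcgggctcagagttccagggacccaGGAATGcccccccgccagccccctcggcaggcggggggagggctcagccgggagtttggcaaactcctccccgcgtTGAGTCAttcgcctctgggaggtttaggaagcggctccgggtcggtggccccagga
ITGA6: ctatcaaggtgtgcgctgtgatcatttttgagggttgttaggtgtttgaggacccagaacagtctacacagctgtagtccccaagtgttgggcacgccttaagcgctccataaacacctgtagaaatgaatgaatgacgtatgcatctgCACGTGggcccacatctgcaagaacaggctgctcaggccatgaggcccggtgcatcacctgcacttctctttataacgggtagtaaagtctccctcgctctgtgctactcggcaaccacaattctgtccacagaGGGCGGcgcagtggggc
LAMB3: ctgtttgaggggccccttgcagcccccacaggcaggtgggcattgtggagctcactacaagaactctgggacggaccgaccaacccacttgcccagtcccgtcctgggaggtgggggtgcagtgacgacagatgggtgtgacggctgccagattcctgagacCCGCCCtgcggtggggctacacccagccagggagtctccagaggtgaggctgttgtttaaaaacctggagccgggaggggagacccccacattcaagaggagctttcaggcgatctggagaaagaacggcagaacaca
LAMA3: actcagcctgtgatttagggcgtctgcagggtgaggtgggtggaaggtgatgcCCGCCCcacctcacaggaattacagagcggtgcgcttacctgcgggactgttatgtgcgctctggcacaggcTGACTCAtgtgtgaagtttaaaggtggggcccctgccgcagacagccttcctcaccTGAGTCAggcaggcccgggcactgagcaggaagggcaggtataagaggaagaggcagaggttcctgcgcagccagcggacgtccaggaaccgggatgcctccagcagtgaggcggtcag

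The motifs were searched on both strands as AP-1 (TGANTCA), the cyclic AMP response element (CRE, TGACGTCA), the GC box (GGGCGG), TEAD (GGAATG), ETS (CCGGAAG), the E-box (CACGTG) and FOXO (TGTTTAC). No 2 matches overlapped in the 6 windows, so 0 bases are marked for more than 1 motif. The ITGA2 window held 4 GC boxes, the last from base -9 to -4 with the start counted as 0, and the neighbouring gene ITGA1 held none of the 7 motifs. AP-1 matches stood in the ITGA5 window, from base -6 to 0, and at 2 places in the LAMA3 window, from base -125 to -119 and from -69 to -63. The first listed LAMB3 window held none, but another of its windows, not shown, held 1 from base -67 to -61 and a GC box from -52 to -47. Another ITGA6 window, not shown either, held GC boxes from base -217 to -212, -106 to -101 and -55 to -50. It also held an ETS match from base -159 to -153. Among first-listed windows, 14 of 26 members held a GC box, against 45% of all 35116 promoter windows. AP-1 was found in 2 of the 26, against 7.71% of all windows, TEAD in 4 against 14.0%, ETS in 2 against 10.3% and the E-box in 1 against 7.26%. CRE and FOXO were found in 0 of the 26, against 1.85% and 3.42% of all windows. A match of letters is a description and not a binding site.

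Counts per library ranged from 30071951 to 37918025 in H1047R insulin and from 21483124 to 29255708 in the other groups. Levels are given in CPM, a gene's count relative to its library's total after TMM scaling. The share of reads placed at several sites, which are in no gene's count, was 8.48 to 9.51% in H1047R insulin and 13.6 to 15.4% elsewhere, and its part in the results was not tested. PIK3CA averaged 721 ± 11.5 CPM in H1047R insulin, 235 ± 68.2 CPM in H1047R vehicle, 82.6 ± 2.86 CPM in control insulin and 88.6 ± 0.384 CPM in control vehicle (SD, n = 3). Transcripts of the plasmid and of the chromosomal gene fall into the same count. Every comparison with H1047R insulin was therefore also one of PIK3CA levels, and the effect of insulin and that of the plasmid's level cannot be told apart there. Of the epithelial markers, KRT8 was at 1359 to 1504 CPM, while CDH1, the E-cadherin gene, was low, at 1.11 to 2.38 CPM. In all, 5 of the 6 epithelial markers averaged at least 1 CPM, the exception being EPCAM, and all 3 mesenchymal markers did. All 6 fibroblast markers did so too, and summed to 2397 to 2488 CPM in H1047R insulin, 3639 to 3991 CPM in H1047R vehicle, 3957 to 4190 CPM in control insulin and 4059 to 4078 CPM in control vehicle. These fibroblast sums were lower in H1047R insulin than in every other group, while those of control insulin and control vehicle overlapped. The 4 members called with insulin in control cells, ITGA2, ITGA11, ITGB4 and ITGB5, were all lower and are described below. Their relation to these markers was not tested. The mesenchymal markers summed to 4998 to 5293 CPM in H1047R insulin and 5979 to 6226 CPM in H1047R vehicle. In control cells they summed to 4832 to 5013 CPM with insulin and 5592 to 6199 CPM in vehicle. The part of either set of markers in the results was not tested. In a bulk library, fewer cells of a kind and less RNA per cell cannot be told apart. Platelet markers were at or near 0 (GP9 and PPBP at 0 counts in all libraries), and 1 of 6 leukocyte markers, CD14, averaged at least 1 CPM. So did 3 of 4 endothelial markers, CDH5, VWF and KDR, and 1 of 3 smooth muscle markers, CNN1.

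To compare levels between genes, CPM was divided by the length of each gene's exons in kilobases. In total, 25 members averaged at least 1 CPM, namely 11 alpha, 5 beta and 9 laminin genes. ITGB1 had the highest level, at 57.4 ± 1.29 CPM per kb in H1047R insulin, 67.8 ± 2.28 in H1047R vehicle, 68.7 ± 3.02 in control insulin and 72 ± 1.67 in control vehicle (SD, n = 3). In H1047R insulin, however, it did not exceed ITGA5, the alpha chain of a fibronectin receptor, which was at 61 ± 0.371 CPM per kb there and at 39.4 ± 0.526 in control vehicle. ITGA5, LAMC1, ITGA3 and ITGA6 followed ITGB1 in the mean over all libraries, at 46.4, 40.4, 39.2 and 31.0 CPM per kb. The order of ITGB1 and ITGA5 in H1047R insulin turns when the longest transcript is used as the length, with means of 148.9 CPM per kb for ITGB1 and 90.1 for ITGA5. LAMC1 and ITGA3 are close in this order and exchange places, as do others, with that length, but 9 of the top 10 genes are shared. The 8 genes that were tested but averaged under 1 CPM were ITGA10, ITGA9, ITGAL, ITGAM, ITGAX, ITGB2, ITGB6 and ITGB7, with 0 to 33 counts in a library, and the 4 under the limit had 0 to 3 counts.

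**Figure D1:**
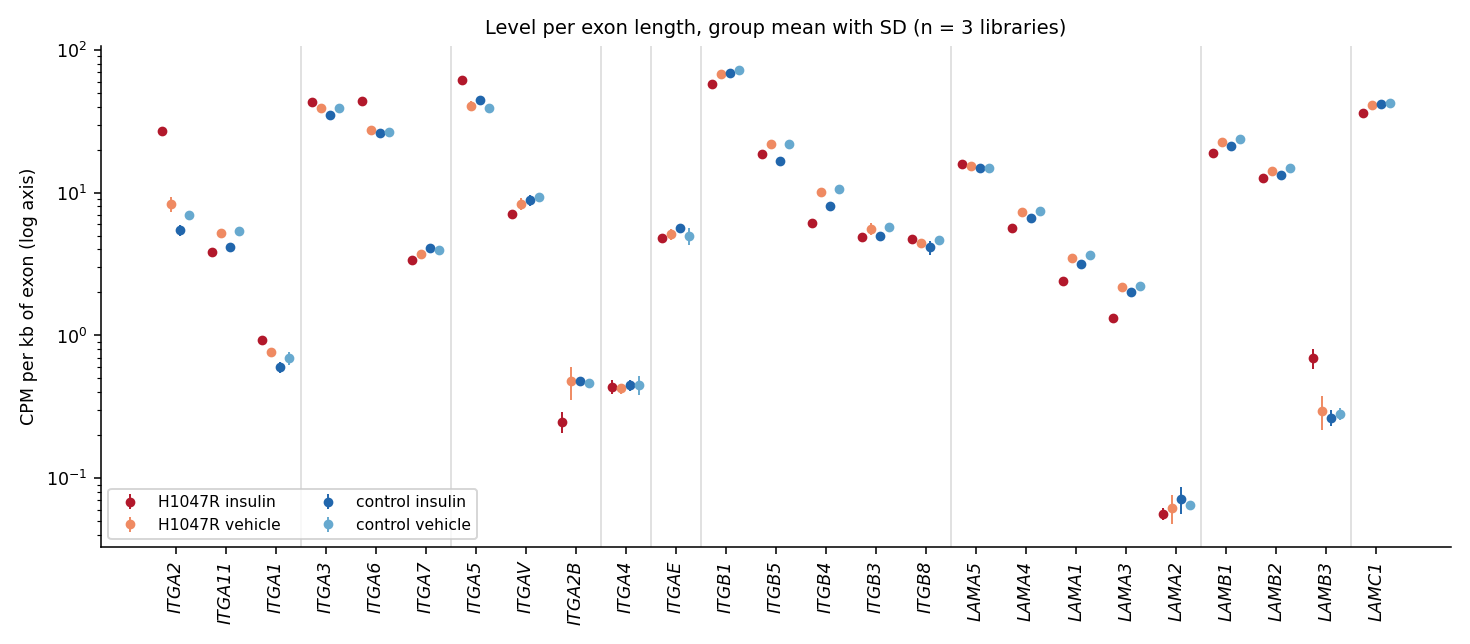
Level per kilobase of exon (log axis) of the 25 integrin and laminin genes averaging at least 1 CPM, as group means (points) with SD (bars) over 3 libraries. Grey lines separate chains by role. ITGA2 and LAMB3 stand higher in H1047R insulin than in the other 3 groups, and LAMA3 and ITGB4 stand lower.

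The question of the study's design is how a PIK3CA mutation changes the response to insulin, and 5 comparisons follow from it. A gene was called where edgeR's quasi-likelihood test, adjusted over all genes tested, gave a false discovery rate (FDR) below 0.001, and log2 fold changes are given ± SE. When H1047R insulin was compared with H1047R vehicle, ITGA2, LAMB3, ITGA6 and ITGA5 were higher, led by ITGA2 and LAMB3. They are single chains of a collagen receptor, an epithelial laminin, a laminin receptor and a fibronectin receptor. Their partner chains ITGB1, LAMA3 and ITGB4 were lower. In all, 6 laminin and 3 beta chains were among the lower genes. In total, 16 of the 33 tested members were called, against 19.6% of all genes. Of these, 4 were higher, against a background of 9.85%, and 12 were lower, against 9.8%. The median log2 fold change was -0.08 over the members and -0.00061 over all genes. Abundant genes are called more often, and among genes averaging at least 1 CPM the shares were 64% of the 25 members and 32.4% of 13302 genes.

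When control insulin was compared with control vehicle, 4 members were called, against 1.63% of all genes. All 4 were lower, against a background of 1.15%, while 0.483% of all genes were called higher. They were the collagen-binding chains ITGA2 and ITGA11 and the beta chains ITGB4 and ITGB5. The insulin effects in H1047R and control cells were then set against each other as an interaction, that is, the effect in H1047R cells minus that in control cells. This difference was called for 8 members, against 9.07% of all genes, with 6 positive (background 4.58%) and 2 negative (4.49%). Without 1 library the count was 5 to 10, with 5 reached without control vehicle replicate 2, control insulin replicate 2, H1047R vehicle replicate 2 or 3 or H1047R insulin replicate 3. The positive ones were ITGA1, ITGA2, ITGA3, ITGA5, ITGA6 and LAMB3, and the negative ones were LAMA3 and ITGB4.

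**Figure D2:**
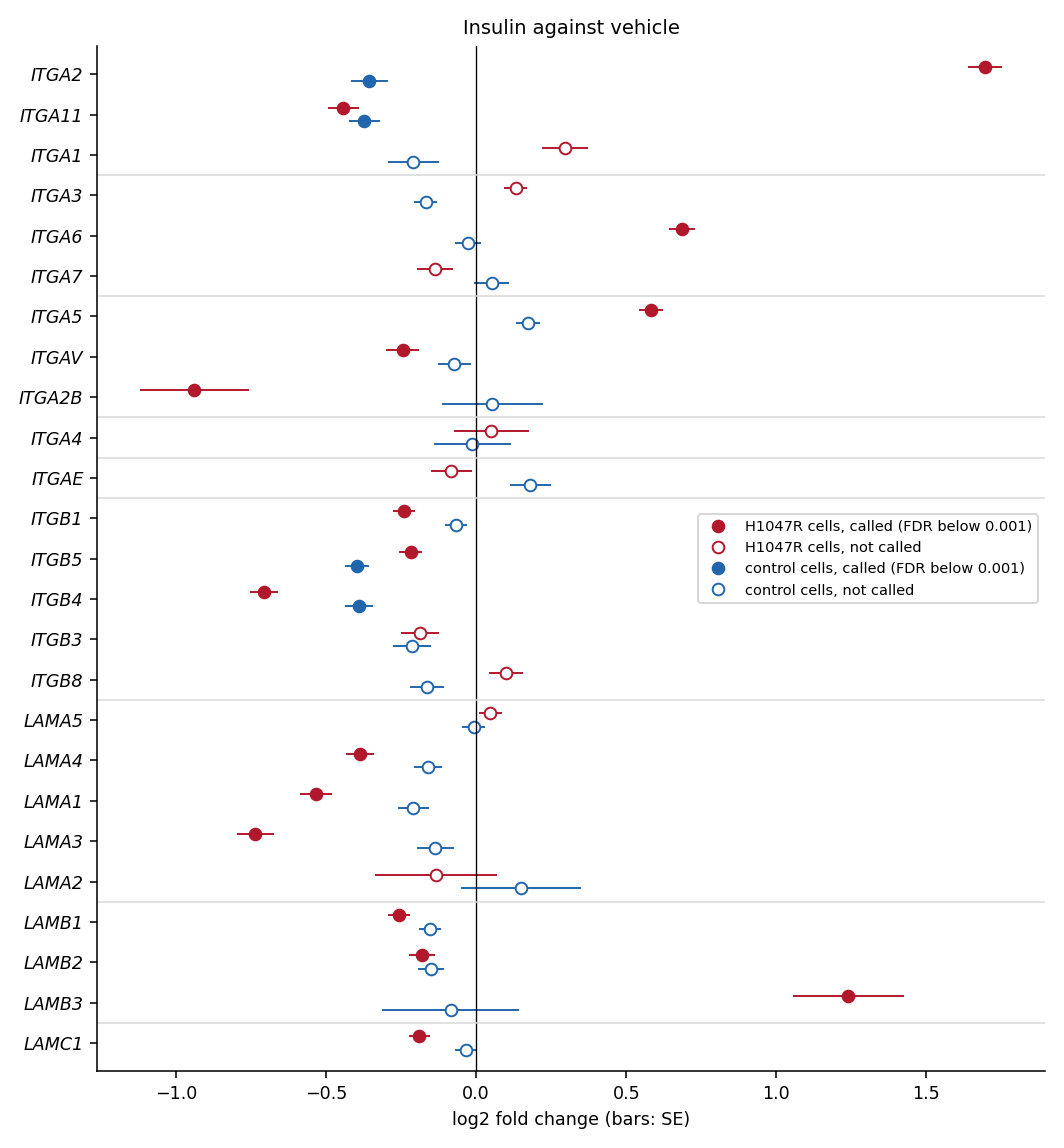
Insulin against vehicle as log2 fold change (points) with SE (bars) in H1047R cells (red) and control cells (blue) for 25 integrin and laminin genes, grouped by role between grey lines. Filled points passed an FDR below 0.001. ITGA2 is at 1.70 in H1047R cells and at -0.36 in control cells, and ITGB4 is below 0 in both.

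H1047R insulin was also compared with control insulin, where 18 members were called, against 23.5% of all genes. Of these, 8 were higher, against 11.4%, and 10 were lower, against 12%. This comparison shares its H1047R insulin libraries with the insulin effect in H1047R cells, so the gene lists of the 2 are not independent. Between H1047R vehicle and control vehicle 0 members were called by edgeR's quasi-likelihood test and 0 by DESeq2, against a background of 0.158% of genes, of which 0.141% were higher and 0.0176% lower. At an unadjusted p below 0.05, 3 members passed, namely ITGA2, ITGAV and ITGB1. These are 3 of the 25 members averaging at least 1 CPM, where 2240 of 13302 genes at that level passed.

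**Figure D3:**
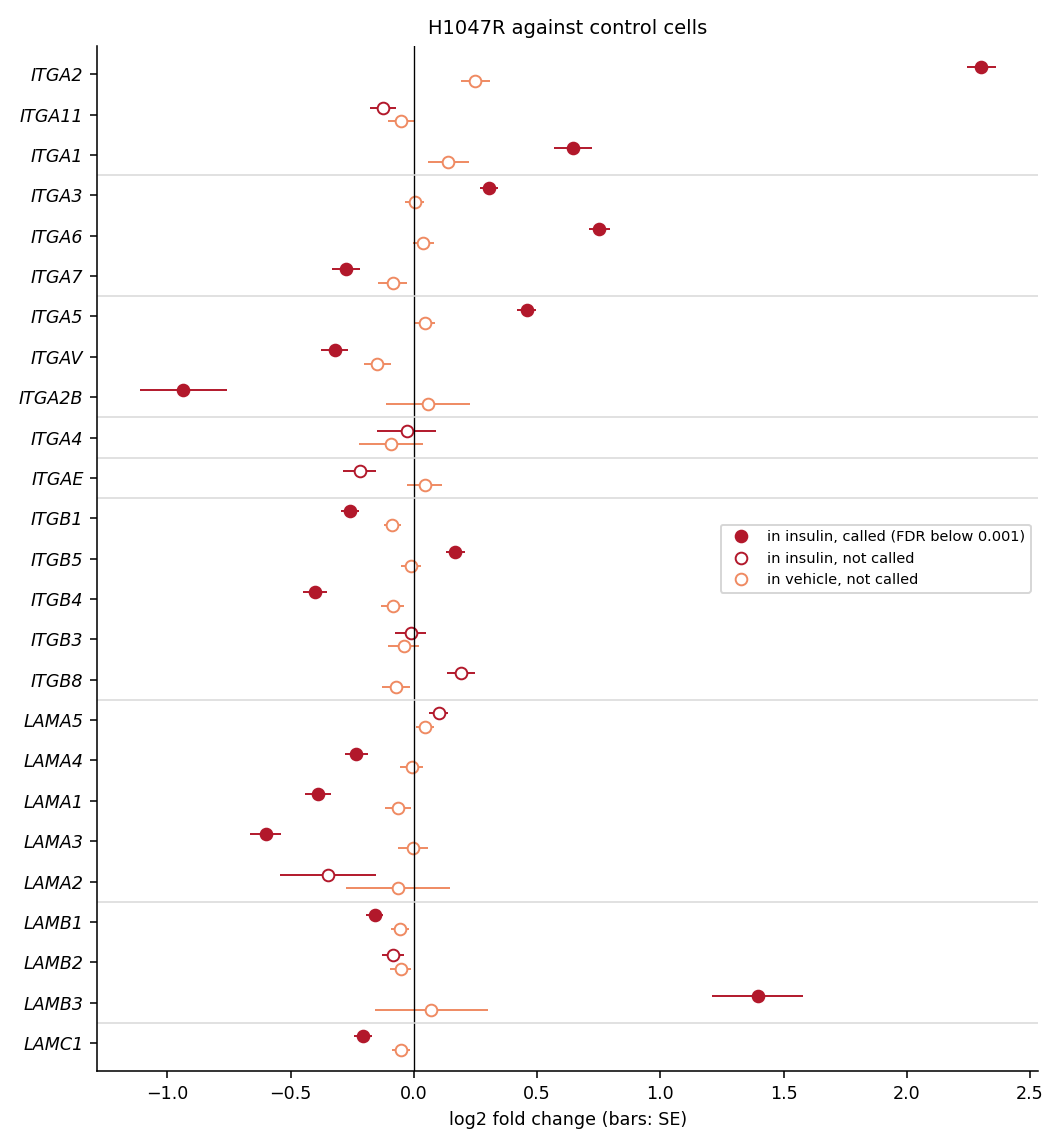
H1047R against control cells as log2 fold change (points) with SE (bars) in insulin (red) and in vehicle (orange) for the same 25 genes. Filled points passed an FDR below 0.001. All points in vehicle lie between -0.15 and 0.25, while those in insulin reach 2.30 for ITGA2.

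Of the collagen-binding alpha chains, ITGA2, which pairs with ITGB1 and lies on chromosome 5 (52989340 to 53094779 in hg38), changed most. It was at 219.7, 208 and 213 CPM in H1047R insulin, 73.9, 57.9 and 66 CPM in H1047R vehicle, 46.2, 44.4 and 39 CPM in control insulin and 55.7, 56.3 and 54 CPM in control vehicle. The 3 H1047R insulin libraries were above all others, the control insulin libraries were below all others, and no 2 groups compared overlapped. ITGA2 was 3.24 times as high in H1047R insulin as in H1047R vehicle (log2 fold change 1.70 ± 0.056, adjusted p = 5.69e-25) and 4.93 times as high as in control insulin (2.30 ± 0.0579, adjusted p = 1.86e-29). In control cells it fell with insulin (log2 fold change -0.36 ± 0.0615, adjusted p = 9.72e-05), so that the difference of the 2 insulin effects was 2.05 ± 0.083 (adjusted p = 1.04e-21). The control effect was no longer called without control vehicle replicate 2 (log2 fold change -0.34, adjusted p = 0.00186) or without control insulin replicate 3 (-0.29, adjusted p = 0.00374). In vehicle the H1047R libraries were all above the control libraries, but the difference was not called (log2 fold change 0.25 ± 0.0599, adjusted p = 0.0232). Without H1047R vehicle replicate 2 it was (log2 fold change 0.34, adjusted p = 0.000442), as it was with no filter on low counts (0.25, adjusted p = 0.000261). ITGA2 made up 13.8% of all integrin alpha levels per kb in H1047R insulin, 5.95% in H1047R vehicle, 4.05% in control insulin and 5.09% in control vehicle.

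ITGA1, the other collagen receptor chain of epithelial and stromal cells, lies next to ITGA2 on the same strand of chromosome 5. It was at 17.2, 17.4 and 17.4 CPM in H1047R insulin, 14.7, 13.9 and 13.9 CPM in H1047R vehicle, 11.8, 11.5 and 9.93 CPM in control insulin and 11.6, 12.6 and 14.4 CPM in control vehicle. The H1047R insulin libraries were the highest and the 2 control groups overlapped. ITGA1 rose in H1047R insulin against control insulin (log2 fold change 0.65 ± 0.078, adjusted p = 5.67e-09). Against H1047R vehicle its log2 fold change was 0.30 ± 0.0767, adjusted p = 0.00197, which was not called but was without H1047R vehicle replicate 1 (0.35, adjusted p = 0.000623), with library totals as the scale (0.33, adjusted p = 0.000643) and with no filter (0.32, adjusted p = 0.000332). The interaction of 0.51 ± 0.114, adjusted p = 0.000845 was lost without any 1 of control vehicle replicates 2 or 3, control insulin replicates 2 or 3, H1047R vehicle replicates 2 or 3 or the 3 H1047R insulin replicates (adjusted p 0.00151 to 0.00592), and when 1 CPM was required in 3 libraries, here called the stricter filter (adjusted p = 0.00115). PELO lies within ITGA1 on the same strand, and reads that fall on exons of both are counted for neither.

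ITGA11, a collagen receptor chain best known from fibroblasts, was at 43.2, 39.9 and 42.2 CPM in H1047R insulin, 59.8, 56.5 and 53.8 CPM in H1047R vehicle, 48, 45.5 and 42.8 CPM in control insulin and 60.2, 56.9 and 59.4 CPM in control vehicle. Both insulin groups were below both vehicle groups. It fell with insulin in H1047R cells (log2 fold change -0.44 ± 0.0524, adjusted p = 4.71e-09) and in control cells (-0.37 ± 0.0527, adjusted p = 3.28e-06), and the difference of the 2 effects was -0.07 ± 0.0743, adjusted p = 0.589. ITGA10 had 5 to 33 counts in a library and was not called.

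Of the laminin-binding alpha chains, ITGA7 had a lower level than ITGA3 and ITGA6, at 3.78 CPM per kb against 39.2 and 31.0 over all libraries. ITGA6, whose beta partner in hemidesmosomes is ITGB4, was at 286, 298 and 297 CPM in H1047R insulin, 192, 174 and 181 CPM in H1047R vehicle, 179, 179.8 and 164 CPM in control insulin and 182, 182 and 168 CPM in control vehicle. All 3 H1047R insulin libraries were above the other 9, which overlapped among each other. ITGA6 rose with insulin in H1047R cells (log2 fold change 0.69 ± 0.0431, adjusted p = 1.85e-16), where in control cells the value was -0.03 ± 0.0438, adjusted p = 0.843. The interaction was 0.71 ± 0.0614, adjusted p = 6.18e-12, and against control insulin H1047R insulin was higher by 0.75 ± 0.0431 (adjusted p = 5.25e-18).

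ITGA3, which pairs with ITGB1 as a laminin receptor of epithelia, was at 428, 424 and 417 CPM in H1047R insulin, 402, 381 and 375 CPM in H1047R vehicle, 326, 344 and 357 CPM in control insulin and 378, 392 and 384 CPM in control vehicle. It was lowest in control insulin, and the 2 vehicle groups overlapped. H1047R insulin was higher than control insulin (log2 fold change 0.30 ± 0.038, adjusted p = 1.15e-08) and the interaction was 0.30 ± 0.0538, adjusted p = 3.8e-05. Neither insulin effect alone was called by edgeR's quasi-likelihood test, at 0.13 ± 0.0379, adjusted p = 0.00511 in H1047R cells and -0.17 ± 0.0382, adjusted p = 0.00348 in control cells. Both were called by DESeq2 (0.14 with adjusted p = 0.000766 in H1047R cells and -0.18 with adjusted p = 0.000193 in control cells) and by edgeR without H1047R vehicle replicate 1 (0.19 with adjusted p = 0.000123 and -0.17 with adjusted p = 0.000573). The effect in H1047R cells was also called with library totals as the scale (0.17, adjusted p = 0.000501) and with no filter (0.16, adjusted p = 0.000336).

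ITGA7, known as the laminin receptor chain of muscle, was at 29.3, 31.5 and 31.2 CPM in H1047R insulin, 32.9, 35.9 and 32.4 CPM in H1047R vehicle, 35.1, 37.7 and 38.6 CPM in control insulin and 38.2, 34.6 and 34.5 CPM in control vehicle. Below all other libraries stood those of H1047R insulin. ITGA7 fell in H1047R insulin against control insulin (log2 fold change -0.27 ± 0.0574, adjusted p = 0.000131). This call was lost without control insulin replicate 2 or 3 or H1047R insulin replicate 1 (adjusted p 0.00157 to 0.00237).

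The alpha chains that bind the RGD motif of fibronectin and vitronectin did not move together. ITGA5 was at 453, 450.3 and 447 CPM in H1047R insulin, 322, 299 and 281 CPM in H1047R vehicle, 319.5, 326 and 339 CPM in control insulin and 288, 290.1 and 296 CPM in control vehicle. In H1047R insulin every library was above all others. ITGA5 rose with insulin in H1047R cells (log2 fold change 0.58 ± 0.0399, adjusted p = 2.29e-15), while the effect in control cells, where the groups did not overlap either, was 0.17 ± 0.0401, adjusted p = 0.00488. The interaction was 0.41 ± 0.0565, adjusted p = 3.78e-07, and H1047R insulin was also higher than control insulin (0.46 ± 0.0396, adjusted p = 1.31e-12).

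ITGAV, the chain that pairs with several beta chains, was at 138, 135 and 137 CPM in H1047R insulin, 145, 162 and 178 CPM in H1047R vehicle, 185, 172 and 154 CPM in control insulin and 191, 177 and 169 CPM in control vehicle. Levels were lowest in the H1047R insulin libraries, and the other 3 groups overlapped. ITGAV fell in H1047R insulin against H1047R vehicle (log2 fold change -0.25 ± 0.0551, adjusted p = 0.000392) and against control insulin (-0.32 ± 0.0547, adjusted p = 5.64e-06). The first call was lost with DESeq2 (adjusted p = 0.0152), with library totals as the scale (adjusted p = 0.00168), with the stricter filter (adjusted p = 0.00127) and without H1047R vehicle replicate 2 or 3 or any 1 of the 3 H1047R insulin replicates (adjusted p 0.00153 to 0.0137), and the second with DESeq2 (adjusted p = 0.00142).

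ITGA2B, the alpha chain of the fibrinogen receptor of platelets, was low, at 1.24, 1.32 and 1.69 CPM in H1047R insulin, 2.15, 3.51 and 2.53 CPM in H1047R vehicle, 2.75, 2.75 and 2.69 CPM in control insulin and 2.63, 2.5 and 2.8 CPM in control vehicle. No library outside H1047R insulin was as low as those 3. ITGA2B fell in H1047R insulin against H1047R vehicle (log2 fold change -0.94 ± 0.18, adjusted p = 4.74e-05) and against control insulin (-0.93 ± 0.177, adjusted p = 3.05e-05). H1047R vehicle replicate 2 was the highest library, and without it the first value was -0.71 and not called (adjusted p = 0.00474). The interaction of -0.99 ± 0.247, adjusted p = 0.00236 was called only without H1047R vehicle replicate 1 (-1.10, adjusted p = 0.000388).

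Among the other alpha chains, ITGA4, which binds fibronectin and VCAM1, was called in none of the 5 comparisons by edgeR's quasi-likelihood test, and neither was ITGAE, which binds E-cadherin together with ITGB7. ITGA4 ranged from 4.14 to 5.60 CPM over the 12 libraries and ITGAE from 29.2 to 39.2 CPM. ITGAE was on average 31.9 ± 1.21 CPM in H1047R insulin, 33.8 ± 2.79 CPM in H1047R vehicle, 37.2 ± 1.85 CPM in control insulin and 32.8 ± 4.43 CPM in control vehicle, and its log2 fold change in H1047R insulin against control insulin was -0.22 ± 0.0668, adjusted p = 0.00724. ITGAM, a chain of myeloid cells, had 7, 11 and 9 counts in the H1047R insulin libraries and 0, 1 and 0 counts in the control insulin libraries. This was a ratio of 21.2 with an exact 95% interval of 3.49 to 866 for counting error only. It was called (adjusted p = 0.000952), but only under 8 of the 17 alternatives that gave it an adjusted p (0.000417 to 0.00781). It lost its call without any 1 of the 3 control insulin replicates, of the 3 H1047R insulin replicates or of control vehicle replicates 2 and 3.

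Of the 8 beta chains, 5 averaged at least 1 CPM. ITGB4, the partner of ITGA6 that links laminin to keratin filaments, was at 42.4, 41 and 41.3 CPM in H1047R insulin, 65.9, 67.6 and 69.8 CPM in H1047R vehicle, 52.8, 56.9 and 54.9 CPM in control insulin and 72, 72.3 and 71.6 CPM in control vehicle. The 4 groups did not overlap in any comparison made, with H1047R insulin lowest and control vehicle highest. ITGB4 fell with insulin in H1047R cells (log2 fold change -0.71 ± 0.047, adjusted p = 1.02e-15) and in control cells (-0.39 ± 0.0466, adjusted p = 8.74e-08), and in H1047R insulin against control insulin (-0.40 ± 0.0473, adjusted p = 3.23e-09). The interaction of -0.31 ± 0.0661, adjusted p = 0.000355 was lost without control vehicle replicate 2, control insulin replicate 2, H1047R vehicle replicate 2 or 3 or H1047R insulin replicate 2 or 3 (adjusted p 0.00106 to 0.00292), and with library totals as the scale or no filter (adjusted p = 0.00103 and 0.00133).

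ITGB5, which pairs with ITGAV as a vitronectin receptor, was at 123, 123 and 121 CPM in H1047R insulin, 143, 143 and 140.4 CPM in H1047R vehicle, 108, 107 and 111 CPM in control insulin and 145, 141 and 144 CPM in control vehicle. Insulin groups were below vehicle groups, and control insulin was the lowest. ITGB5 fell with insulin in H1047R cells (log2 fold change -0.22 ± 0.039, adjusted p = 1.6e-05) and in control cells (-0.40 ± 0.0396, adjusted p = 1.31e-09). It was higher in H1047R insulin than in control insulin (0.17 ± 0.0393, adjusted p = 0.000524), a call lost without control insulin replicate 1 or 2 or any 1 of the 3 H1047R insulin replicates (adjusted p 0.00191 to 0.00586).

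ITGB1 was at 823, 857 and 828 CPM in H1047R insulin, 954, 988 and 1021 CPM in H1047R vehicle, 996, 1047.2 and 959.6 CPM in control insulin and 1049, 1073 and 1025 CPM in control vehicle. Every library of the other groups was above those of H1047R insulin. It fell in H1047R insulin against H1047R vehicle (log2 fold change -0.24 ± 0.0361, adjusted p = 6.99e-07) and against control insulin (-0.26 ± 0.0361, adjusted p = 1.17e-07). ITGB3 and ITGB8 were not called. ITGB3, the partner of ITGAV and ITGA2B, ranged from 31.8 to 41.3 CPM. ITGB8, which with ITGAV activates latent TGFβ, ranged from 55.1 to 74.2 CPM, and was called in H1047R insulin against control insulin only without control insulin replicate 1 (log2 fold change 0.26, adjusted p = 0.00043) or H1047R vehicle replicate 1 (0.22, adjusted p = 0.000166), apart from 3 changes of the processing. Its interaction was called only with no filter (0.29, adjusted p = 0.000634).

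**Figure D4:**
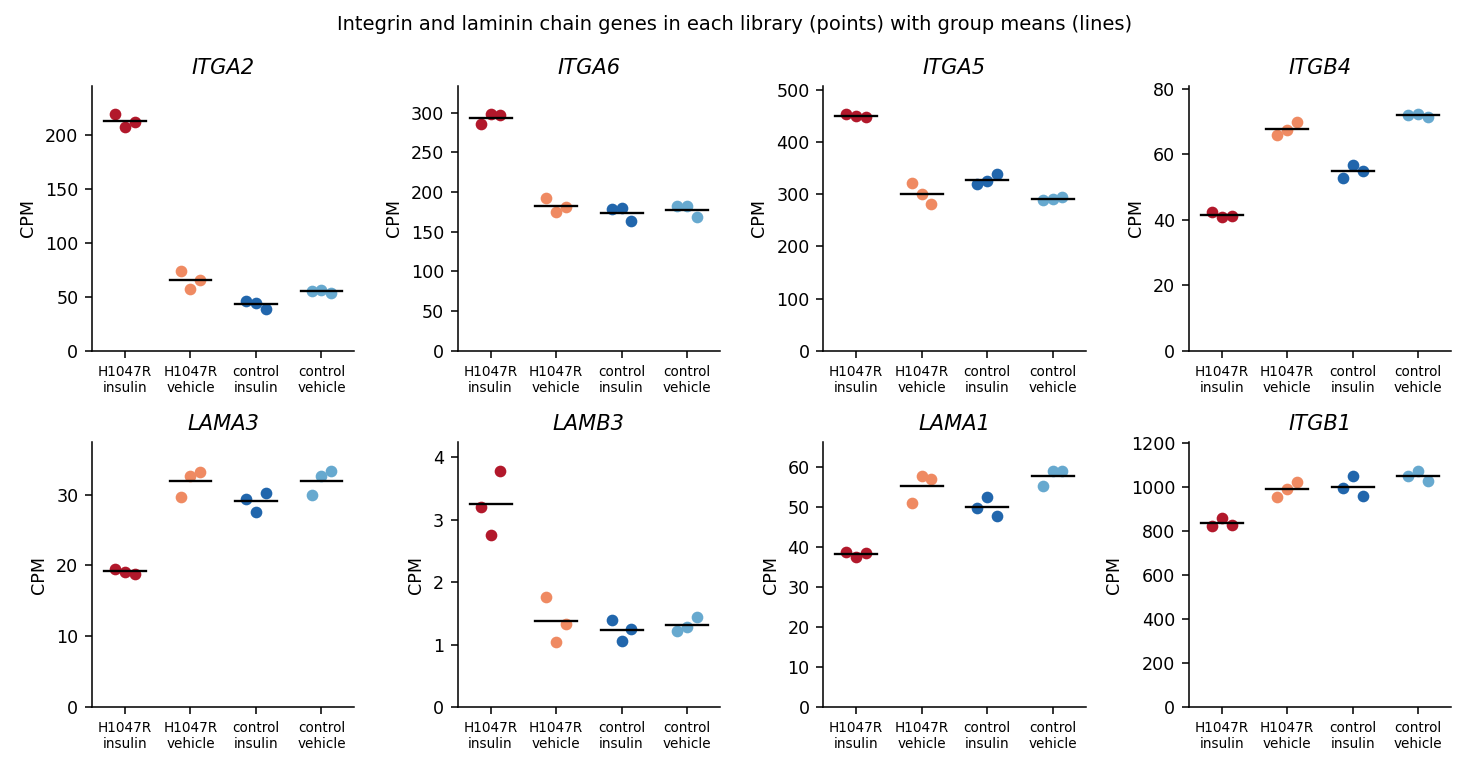
Level in CPM (axes from 0) of 8 integrin and laminin genes in each of the 12 libraries (points) with group means (lines). The H1047R insulin libraries of ITGA2 lie between 207.6 and 219.7 CPM and all others at or below 73.9 CPM, and those of LAMA3 lie at or below 19.6 CPM and all others at or above 27.6 CPM.

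The chains LAMA3 and LAMB3 of the epithelial laminin moved in opposite directions. LAMB3 was at 3.2, 2.75 and 3.79 CPM in H1047R insulin, 1.77, 1.05 and 1.33 CPM in H1047R vehicle, 1.39, 1.07 and 1.25 CPM in control insulin and 1.22, 1.29 and 1.45 CPM in control vehicle, that is, 27 to 146 counts. Levels were highest in the H1047R insulin libraries, and the other 3 groups overlapped. LAMB3 rose with insulin in H1047R cells (log2 fold change 1.24 ± 0.186, adjusted p = 7.18e-07) and in H1047R insulin against control insulin (1.40 ± 0.185, adjusted p = 4.48e-08). In control cells the insulin effect was -0.09 ± 0.229, adjusted p = 0.914. The interaction of 1.33 ± 0.298, adjusted p = 0.000814 was lost with DESeq2 (adjusted p = 0.00129), with the stricter filter (adjusted p = 0.00126) and without any 1 of the 3 control vehicle replicates, control insulin replicates 2 or 3, H1047R vehicle replicates 2 or 3 or H1047R insulin replicates 1 or 3 (adjusted p 0.00151 to 0.00495).

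LAMA3, the alpha chain of this laminin, was at 19.6, 19.1 and 18.8 CPM in H1047R insulin, 29.7, 32.6 and 33.2 CPM in H1047R vehicle, 29.3, 27.6 and 30.2 CPM in control insulin and 29.9, 32.6 and 33.4 CPM in control vehicle. Its H1047R insulin libraries were the lowest. LAMA3 fell with insulin in H1047R cells (log2 fold change -0.74 ± 0.062, adjusted p = 8.28e-13) and in H1047R insulin against control insulin (-0.60 ± 0.0618, adjusted p = 1.19e-10), with an interaction of -0.60 ± 0.0867, adjusted p = 1.01e-06. The gene has a long and a short transcript from different starts, which gene counts do not separate.

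The ratio of levels per kb within this laminin was computed in each library. LAMB3 over LAMA3 was 0.529 ± 0.09 in H1047R insulin, 0.137 ± 0.044 in H1047R vehicle, 0.133 ± 0.0143 in control insulin and 0.128 ± 0.00617 in control vehicle (SD, n = 3). The levels of the pair were closest to each other in H1047R insulin. In the receptor, ITGA6 over ITGB4 was 7.15 ± 0.286 in H1047R insulin, 2.73 ± 0.195 in H1047R vehicle, 3.22 ± 0.212 in control insulin and 2.5 ± 0.0989 in control vehicle. ITGA2 over its neighbour ITGA1 was 28.9 ± 0.987 in H1047R insulin, 10.9 ± 1.05 in H1047R vehicle, 9.16 ± 0.0791 in control insulin and 10.2 ± 1.23 in control vehicle. For all 3 ratios the H1047R insulin libraries did not overlap with those of any other group. They were built from genes already tested singly, and no test was made of them.

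**Figure D5:**
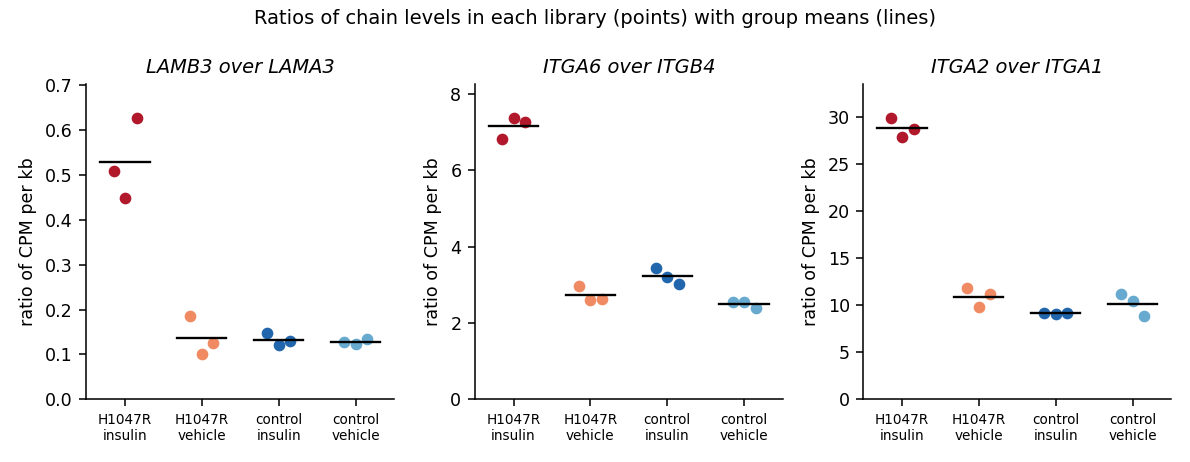
Ratios of the level per kilobase of exon in each of the 12 libraries (points) with group means (lines), on axes from 0. LAMB3 over LAMA3 lies between 0.450 and 0.627 in H1047R insulin and at or below 0.186 in all other libraries.

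The remaining laminin alpha chains were lower in H1047R insulin or were not called. LAMA1, a chain of embryonic basement membranes, was at 38.7, 37.4 and 38.5 CPM in H1047R insulin, 50.9, 57.8 and 57 CPM in H1047R vehicle, 49.7, 52.4 and 47.9 CPM in control insulin and 55.3, 59.1 and 59.1 CPM in control vehicle. The lowest libraries were those of H1047R insulin. LAMA1 fell with insulin in H1047R cells (log2 fold change -0.53 ± 0.0529, adjusted p = 6.62e-11) and in H1047R insulin against control insulin (-0.39 ± 0.0528, adjusted p = 7.78e-08). In control cells the groups did not overlap but the insulin effect was not called (-0.21 ± 0.0524, adjusted p = 0.00936), and the interaction of -0.32 ± 0.0744, adjusted p = 0.00107 was called only with counts taken regardless of strand (-0.34, adjusted p = 0.000592) and without control insulin replicate 3 (-0.35, adjusted p = 0.000798) or H1047R vehicle replicate 1 (-0.35, adjusted p = 0.00015).

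LAMA4, a chain of vascular and mesenchymal basement membranes, was at 67.3, 70.4 and 64.4 CPM in H1047R insulin, 86.1, 88.6 and 89.6 CPM in H1047R vehicle, 82.8, 77.9 and 76.9 CPM in control insulin and 84.9, 90.8 and 90.1 CPM in control vehicle. Again the lowest libraries were those of H1047R insulin. LAMA4 fell with insulin in H1047R cells (log2 fold change -0.39 ± 0.0461, adjusted p = 5.42e-09). Against control insulin the change was -0.23 ± 0.046, adjusted p = 5.62e-05, a call lost without control insulin replicate 1 or H1047R insulin replicate 3 (-0.20 in both, adjusted p = 0.00132 and 0.00195). LAMA5, the most abundant laminin alpha chain per kb and a common chain of mature epithelia, was called in none of the 5 comparisons by edgeR's quasi-likelihood test. It was on average 228 ± 7.34 CPM in H1047R insulin, 221 ± 3.81 CPM in H1047R vehicle, 213 ± 4.79 CPM in control insulin and 214 ± 1.39 CPM in control vehicle, and its log2 fold change in H1047R insulin against control insulin was 0.10 ± 0.0378, adjusted p = 0.0311. LAMA2, known from muscle, ranged from 1.40 to 2.23 CPM and was not called either.

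The widely shared chains LAMB1, LAMB2 and LAMC1 were called lower with insulin in H1047R cells, with log2 fold changes of -0.26, -0.18 and -0.19. LAMB1 was at 358, 358 and 348 CPM in H1047R insulin, 406, 433 and 432 CPM in H1047R vehicle, 399, 392 and 397 CPM in control insulin and 442, 434 and 445 CPM in control vehicle. The lowest were the H1047R insulin libraries, followed by those of control insulin. It fell with insulin in H1047R cells (log2 fold change -0.26 ± 0.0359, adjusted p = 1.63e-07) and in H1047R insulin against control insulin (-0.16 ± 0.0359, adjusted p = 0.00035). The insulin effect in control cells, at -0.15 ± 0.0359, adjusted p = 0.00468, was called only by DESeq2 (-0.16, adjusted p = 8.36e-05). The call against control insulin was lost with library totals as the scale, no filter or only the groups compared (adjusted p = 0.00552, 0.00365 and 0.00123) and without any 1 of the 3 control insulin replicates, H1047R vehicle replicate 1 or any 1 of the 3 H1047R insulin replicates (adjusted p 0.00145 to 0.00491).

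LAMC1, the gamma chain of most laminins, was at 311, 304 and 301 CPM in H1047R insulin, 339, 356 and 349 CPM in H1047R vehicle, 359, 343 and 354 CPM in control insulin and 359, 358 and 365 CPM in control vehicle. Its H1047R insulin libraries were below all others. It fell with insulin in H1047R cells (log2 fold change -0.19 ± 0.0362, adjusted p = 4.52e-05) and in H1047R insulin against control insulin (-0.20 ± 0.0362, adjusted p = 1.05e-05). The first call was lost without H1047R vehicle replicate 2 (-0.17, adjusted p = 0.00107). LAMB2 was at 88.6, 84.6 and 85.5 CPM in H1047R insulin, 95.9, 99.9 and 97.4 CPM in H1047R vehicle, 88.4, 96.2 and 89.7 CPM in control insulin and 103, 100.3 and 101 CPM in control vehicle, and H1047R insulin overlapped with control insulin. Its fall with insulin in H1047R cells (-0.18 ± 0.0432, adjusted p = 0.000816) was lost without control vehicle replicate 2, any 1 of the 3 H1047R vehicle replicates or any 1 of the 3 H1047R insulin replicates (adjusted p 0.00111 to 0.00893). It was also lost with library totals as the scale, no filter, counts regardless of strand or only the groups compared (adjusted p = 0.00576, 0.00668, 0.00124 and 0.00123). LAMB1 and LAMB2 made up most of the laminin beta levels per kb, at 59.0% and 38.9% in H1047R insulin and 61.1% and 38.1% in control vehicle, while LAMB3 was at 2.16% and 0.73%.

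Genes that work with these chains were described from 4 lists. The shares of all genes called, against which their counts stand, were 19.6% with insulin in H1047R cells, 1.63% with insulin in control cells, 23.5% in H1047R insulin against control insulin, 0.158% in H1047R vehicle against control vehicle and 9.07% in the interaction. Among genes averaging at least 1 CPM they were 32.4%, 2.79%, 38.4%, 0.271% and 15.4% in the same order.

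Of 19 tested hemidesmosome and non-integrin laminin receptor genes, 11 (57.9%) were called with insulin in H1047R cells, 4 higher and 7 lower. The backgrounds were 19.6% of all genes and 32.4% of those averaging at least 1 CPM. With insulin in control cells 2 were called, both lower. In H1047R insulin against control insulin 15 were called, 6 higher and 9 lower. The interaction was called for 8, 2 positive and 6 negative. Without H1047R vehicle replicate 2 the last count was 5. COL17A1, the transmembrane collagen of hemidesmosomes, was at 4.92 ± 0.69 CPM in H1047R insulin and 0.829 ± 0.54 CPM in H1047R vehicle (log2 fold change 2.58 ± 0.229, adjusted p = 3.53e-12). In control insulin it was at 0.517 ± 0.162 CPM. The genes of this list named for a called interaction were SDC2, SDC4 and BCAM, and not COL17A1. No difference between its insulin effects in H1047R and control cells is therefore claimed. SDC4, a heparan sulphate receptor of focal adhesions, was at 391 ± 4.8 CPM in H1047R insulin and 220.5 ± 2.3 CPM in control insulin (log2 fold change 0.83 ± 0.0383, adjusted p = 6.23e-21). Its relative SDC2 was lower, at 14.7 ± 0.9 CPM in H1047R insulin and 25.3 ± 2.22 CPM in H1047R vehicle (-0.78 ± 0.0699, adjusted p = 3.74e-12). BCAM, a receptor for LAMA5 laminins, was at 35.8 ± 1.07 CPM in H1047R insulin and 60.6 ± 1.88 CPM in H1047R vehicle (-0.76 ± 0.0478, adjusted p = 1.85e-16) and also fell with insulin in control cells (-0.23 ± 0.0464, adjusted p = 0.00073), as did PLEC, which ties ITGB4 to keratin (-0.19 ± 0.0368, adjusted p = 0.000419). Both of these control calls were lost without replicate 2 or 3 of either control group (adjusted p 0.0031 to 0.00949), that of BCAM also without any other control or any H1047R insulin replicate (0.00104 to 0.00403), and that of PLEC with the stricter filter (adjusted p = 0.00114).

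Of 41 tested integrin ligands and basement membrane partners other than laminins and collagens, 26 (63.4%) were called with insulin in H1047R cells. Of these, 5 were higher and 21 lower. The backgrounds were 19.6% of all genes and 32.4% of those averaging at least 1 CPM. In control cells 15 (36.6%, against 1.63%, or 2.79% at 1 CPM or more) were called with insulin, 1 higher and 14 lower. POSTN, which binds ITGAV receptors, was at 77.6 ± 1.35 CPM in H1047R insulin and 284 ± 35.5 CPM in H1047R vehicle (log2 fold change -1.87 ± 0.0531, adjusted p = 7.55e-27), and was among the 2 of this list called in H1047R vehicle against control vehicle, both lower (-0.32 ± 0.0501, adjusted p = 0.000186). The other was EDIL3, a ligand of ITGAV receptors (-0.29 ± 0.0489, adjusted p = 0.000613). Both calls were lost with the stricter filter (adjusted p = 0.0038 for each) and without control vehicle replicate 1 or 2 (adjusted p 0.00215 to 0.0147), and that of EDIL3 also without control vehicle replicate 3 or H1047R vehicle replicate 1 (0.00204 and 0.00763) and with only the groups compared (0.00133). BGN, a small proteoglycan, was at 1.88 ± 0.434 CPM in H1047R insulin and 6.06 ± 0.456 CPM in H1047R vehicle (-1.71 ± 0.139, adjusted p = 2.96e-13). VTN, the vitronectin gene, was at 1.58 ± 0.208 CPM in H1047R insulin and 4.97 ± 0.401 CPM in H1047R vehicle (-1.64 ± 0.157, adjusted p = 2.31e-11). In control cells the largest changes with insulin were those of CCN2 (-1.09 ± 0.0539, adjusted p = 2.69e-18), TNXB (-0.62 ± 0.0979, adjusted p = 2.47e-05) and CCN1 (-0.58 ± 0.0435, adjusted p = 9.46e-13), all matrix proteins, among listed genes averaging at least 1 CPM. The call of TNXB was lost without control vehicle replicate 2 (-0.45, adjusted p = 0.00352). In H1047R insulin against control insulin 23 of the list were called, 7 higher and 16 lower, and 17 in the interaction, 5 positive and 12 negative.

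Of 43 tested focal adhesion adaptors and kinases, 22 (51.2%) were called with insulin in H1047R cells, 7 higher and 15 lower. The backgrounds were 19.6% of all genes and 32.4% of those averaging at least 1 CPM. LIMS2 and PARVA, partners of the integrin-linked kinase, fell (-0.69 ± 0.0916, adjusted p = 6.46e-08 and -0.48 ± 0.0387, adjusted p = 2.11e-13), and the tetraspanin CD82 rose (0.45 ± 0.0574, adjusted p = 2.17e-08). In control cells 2 (4.65%, against 1.63%, or 2.79% at 1 CPM or more) were called with insulin, FERMT1, a kindlin, which rose (0.54 ± 0.104, adjusted p = 0.000555), and VCL, vinculin, which fell (-0.19 ± 0.0345, adjusted p = 0.000159). Neither was called without replicate 2 of control vehicle or replicate 3 of control insulin, and 1 of them was without any other control replicate and with counts regardless of strand (adjusted p of lost calls 0.00184 to 0.0192). In H1047R insulin against control insulin 20 were called, 8 higher and 12 lower, among them ENAH, an actin regulator, lower (-0.57 ± 0.0501, adjusted p = 1.89e-12). The interaction was called for 10, 5 positive and 5 negative.

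Of 20 transcriptional regulators of adhesion genes, 6 (30%) were called with insulin in H1047R cells, all higher. The backgrounds were 19.6% of all genes and 32.4% of those averaging at least 1 CPM, to which the 30% is near. In H1047R insulin against control insulin 13 (65%, against 23.5%, or 38.4% at 1 CPM or more) were called, 11 higher and 2 lower. FOSL1, an AP-1 subunit, was at 75.7 ± 1.56 CPM in H1047R insulin and 21 ± 4.37 CPM in H1047R vehicle (log2 fold change 1.85 ± 0.0754, adjusted p = 2.78e-22). JUN, another AP-1 subunit, was at 149 ± 4.3 CPM in H1047R insulin and 91 ± 6.06 CPM in H1047R vehicle (0.71 ± 0.0449, adjusted p = 2.41e-16). SNAI1, a repressor of epithelial genes, was at 3.84 ± 0.356 CPM in H1047R insulin and 2.05 ± 0.171 CPM in H1047R vehicle (0.91 ± 0.148, adjusted p = 3.16e-06). The interaction was called for 7, all positive, among them SNAI2 (0.59 ± 0.114, adjusted p = 0.000103). Without control vehicle replicate 3 the count was 4, and SNAI2 was not called (0.52, adjusted p = 0.00101). With insulin in control cells 0 of the 20 were called by edgeR's quasi-likelihood test, 9 had an unadjusted p below 0.05, where 3228 of 13302 genes averaging at least 1 CPM did, and 1 was called by DESeq2. Other settings of the edgeR fit called up to 2. In H1047R vehicle against control vehicle 0 members of the focal adhesion, hemidesmosome and regulator lists were called by edgeR or by DESeq2, and 5, 7 and 3 of them had an unadjusted p below 0.05, where 2240 of 13302 genes averaging at least 1 CPM did.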

How the data were processed

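The input to each strand-keeping mRNA library was 500 ng of RNA. The authors used cutadapt and Trim Galore for trimming and STAR for alignment to hg38, as the methods and processing notes say, and deposited raw gene counts of uniquely placed reads, without normalization. The sources used here give no versions of these tools, and the annotation release they name belongs to mouse. Reads shared by near-identical genes are undercounted. The reverse-strand column, which the study also took, held 93.5 to 93.7% of strand-specific counts. Unmapped, multiply placed, unassigned and ambiguous reads (3.12 to 4.09%, 8.48 to 15.4%, 3.91 to 4.55% and 3.31 to 3.61%) stayed out of library sizes and tests. Gene names, biotypes, positions and exon lengths came from GENCODE v44 on hg38, in which 60357 of 60617 identifiers were found.

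edgeR 4.0.16 in R 4.3.3 (glmQLFit, then glmQLFTest) was run on all genes with a mean of at least 1 count, with TMM factors. The 12 libraries entered 1 model with a term for each of the 4 groups, which left 8 residual degrees of freedom. Benjamini-Hochberg FDR below 0.001 over all genes was the threshold. The study set the same limit with DESeq2, but on p-values corrected by independent hypothesis weighting. The SE is the absolute log2 fold change over the square root of F. Adjusted p-values are from this test unless DESeq2 1.42.0 is named. Replicates differed by more than counting noise (chi-square per degree of freedom 2.7 to 5.9), and exact intervals cover counting error only. Every member is accounted for except where it is not reported here, and the counts of members and list genes leave such genes out. Given are those called and averaging at least 1 CPM with each library's value, and of each list up to 3 called genes with the largest change per comparison. The members and lists were chosen with earlier results of these data known. The fit was also run on counts simulated from its own estimate of the spread, with few genes changed. Such a run cannot show how it behaves where as many genes change as in H1047R insulin. Other parts of the study are not analysed here.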

Additional observations from a re-analysis of the deposited data

Results flagged for a closer look

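The effect of insulin differed between H1047R and control cells by edgeR's interaction test for 8 integrin and laminin genes. As the effect in H1047R cells minus that in control cells (log2), the difference was 2.05 for ITGA2, 1.33 for LAMB3, 0.71 for ITGA6, 0.51 for ITGA1, 0.41 for ITGA5, 0.30 for ITGA3, -0.31 for ITGB4 and -0.60 for LAMA3. Among the named genes of the 4 lists it was 2.25 for FOSL1, 0.87 for JUN, 0.59 for SNAI2, 0.72 for SDC4, -1.04 for SDC2, -0.53 for BCAM, -1.87 for POSTN, -1.76 for BGN, -1.10 for VTN (not called without control insulin replicate 3, at -0.93 with adjusted p = 0.00111), 0.65 for CD82 and -0.50 for ENAH.

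Reads on the strand opposite to 3 of the genes, which the main fit did not use, were higher in H1047R insulin than in the control libraries. For LAMA5, which overlaps ADRM1 on the other strand, they averaged 44.5 ± 0.214 CPM in H1047R insulin, 33.9 ± 1.77 in H1047R vehicle, 32.2 ± 1.61 in control insulin and 29.8 ± 0.198 in control vehicle (SD, n = 3). For ITGAE they averaged 8.39 ± 0.663 CPM in H1047R insulin, 7.21 ± 0.159 in H1047R vehicle, 6.87 ± 0.409 in control insulin and 6.67 ± 0.364 in control vehicle. For ITGA6 they averaged 5.32 ± 0.736 CPM in H1047R insulin, 3.37 ± 0.462 in H1047R vehicle, 3.91 ± 0.283 in control insulin and 3.88 ± 0.783 in control vehicle. Not all members went this way. For ITGB1 opposite-strand reads averaged 3.74 ± 0.0685 CPM in H1047R insulin, 5.64 ± 1.14 in H1047R vehicle, 6.85 ± 1.18 in control insulin and 6.62 ± 0.456 in control vehicle. Which transcripts gave these reads was not tested.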

How the results depend on the processing

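Of 45 called changes of genes averaging at least 1 CPM, 32 kept their call under every alternative run for them, 13 lost it under at least 1, and 0 turned round. The 19 alternatives were library totals as the scale, other filters, DESeq2, counts regardless of strand, a replicate block, a fit of only the groups compared and 12 fits without 1 library each. The fit of only the groups compared was not made for the interaction. In H1047R vehicle against control vehicle, 1 gene, ITGA2, was called with no filter on low counts (log2 fold change 0.25, adjusted p = 0.000261). Leaving out 1 library gave 3 to 5 called chains for insulin in control cells, 12 to 17 for insulin in H1047R cells, 0 to 1 for H1047R in vehicle, 14 to 18 for H1047R in insulin and 5 to 10 for the interaction. Over all genes, the count for H1047R in vehicle was 36 and became 152 with no filter, 6 with a filter at 1 CPM in 3 libraries, 22 with DESeq2 and 14 to 100 without 1 library, and that for insulin in control cells was 372 and became 233 without control insulin replicate 2. With the replicate number as a block, 4, 15, 0, 17 and 7 chains were called in the 5 comparisons, against 4, 16, 0, 18 and 8 without it. Not called with the block were LAMB2 with insulin in H1047R cells (adjusted p = 0.00125), ITGAM in H1047R insulin against control insulin (0.00162), the interaction of ITGA1 (0.00102) and, among the listed genes named, BCAM with insulin in control cells (0.00116). Samples with the same number did not deviate together more than others (correlations from -0.058 to 0.087 over 18 pairs, against -0.086 to 0.088 over 36 pairs with other numbers). Such correlations cannot decide whether samples with the same number came from the same experiment. Genes under 1 CPM, such as ITGAM, have too few counts for firm values at this depth.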
